A study of Mus musculus with 21 samples.

Results

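A set of 8 genes that WT cells of the macrophage-like mouse line RAW264.7 expressed, and that its vimentin-knockout (Vim-KO) derivative did not or hardly did, is described here across 21 libraries of RNA sequencing. They are Adcy2, Ctla2b, Dapk1, Flot2, Gm48981, Psma8, Tfec and Basp1, which are 8 of the 35550 genes listed for the cell line. They were picked by symbol because their values stayed near 0 in the Vim-KO libraries while WT libraries expressed them, so their difference between Vim-KO and WT cells is given as a description, without a test. At 12 h the line had 4 groups of 2 libraries, namely Vim-KO cells with LPS at 1 µg/mL or with PBS, and WT cells with LPS at 1 µg/mL or with PBS. At 24 h, in an experiment extracted on another date, WT cells had 3 groups of 2 libraries, which were LPS at 1 µg/mL plus CTM at 0.5 mM, LPS at 1 µg/mL alone, and PBS. Livers of C57BL/6J mice gave 1 library each from TG2-KO animals with LPS at 30 mg/kg or PBS, and from WT animals with LPS at 30 mg/kg plus CTM at 100 mg/kg, that LPS dose alone, LPS with or without macrophage depletion (no dose in the labels), or PBS. LPS, from the outer membrane of Gram-negative bacteria, activates macrophages. CTM is a compound named as in the labels, which give no age of the animals. The labels do not say how the Vim-KO line was made, whether it is 1 clone, or whether the paired libraries of each group are separate cultures; p-values thus cover the spread between those libraries alone, which may be technical.

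Vimentin is an intermediate filament protein of mesenchymal cells and of macrophages, where it forms a network through the cytoplasm. The 8 genes have no common pathway by their known roles. They encode an enzyme of second messenger synthesis, a protein kinase, membrane-associated proteins, a proteasome subunit, a protease inhibitor and a transcription factor, and 1 is annotated as a pseudogene.

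The values are TPM (transcript abundance, scaled for transcript length and to a fixed total in each library). They hold no read depth, and how deeply each library was sequenced is unknown. Vim, the targeted gene, stood at 16.99 and 18.7 TPM in the Vim-KO PBS libraries, against 1930 and 1877 TPM in the WT PBS libraries. With LPS it stood at 30.8 and 32.95 TPM in Vim-KO cells, against 1375 and 1461 TPM in WT cells, so no library went against its label. All 10 macrophage markers of a list that includes Cd68 and Csf1r were at 1 TPM or more in every cell line library. At 12 h their summed level was lower in the knockout, at 9423 to 9430 TPM in Vim-KO PBS cells against 18200 to 18336 TPM in WT PBS cells. With LPS the sums were 11921 to 12747 TPM in Vim-KO cells and 14601 to 15510 TPM in WT cells. In the other experiment WT PBS cells at 24 h had a sum of 10891 to 11174 TPM. That is nearer to the Vim-KO than to the WT sum with PBS at 12 h. For WT LPS cells at 24 h the sum was 14971 to 15246 TPM. This lies within the WT range and above the Vim-KO range with LPS at 12 h. The experiments differ in time, extraction date and normalization, and the difference in these sums between them was not tested. Marker sums of fibroblasts, neurons, germ cells, B cells, T cells, hepatocytes and Kupffer cells reached at most 1.11 TPM in any cell line library. With LPS at 12 h the 5 neutrophil markers summed to 13.1 to 13.9 TPM in Vim-KO and to 894.7 to 910.1 TPM in WT cells. Ly6g and Retnlg were listed at 0 in these groups. WT LPS cells at 24 h had a neutrophil sum of 7.82 to 8.33 TPM. The part of these markers in any result below was not tested.

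The signalling enzymes of the set were at or next to 0 in the Vim-KO line. Adcy2, an adenylyl cyclase that makes cyclic AMP, was listed at 0 and 0.0216 TPM in Vim-KO cells with PBS, against 8.81 and 9.68 TPM in WT cells. With LPS it was listed at 0 in both Vim-KO libraries, against 12.1 and 13.7 TPM in WT cells. All 4 WT libraries were thus far above the Vim-KO ones, and the WT LPS libraries were the highest. Dapk1, a calmodulin-regulated serine/threonine kinase known for its part in cell death and autophagy, was listed at 0 and 0.0180 TPM in Vim-KO cells with PBS, against 24.5 and 22.8 TPM in WT cells. With LPS Dapk1 was at 0 in both Vim-KO libraries, against 12.7 and 13.3 TPM in WT cells. Here the WT PBS libraries were the highest, and no Vim-KO library overlapped the WT libraries. Adcy2 lies on chromosome 13 from 68620043 to 68999541 on the minus strand, and Dapk1 on the same chromosome from 60601947 to 60763191 on the plus strand (GRCm38, as all positions here).

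The membrane-associated genes held both the most abundant member and the only one that LPS brought above 1 TPM in the knockout. Flot2 encodes flotillin-2, a scaffold of membrane rafts, on chromosome 11 from 78037931 to 78060434 on the plus strand. It was at 0.0730 and 0 TPM in Vim-KO cells with PBS, against 24.9 and 26.1 TPM in WT cells. With LPS Flot2 was at 0.0359 and 0 TPM in Vim-KO cells, against 29.3 and 29.6 TPM in WT cells. Flot2 was therefore above 0 in a single Vim-KO library of each treatment, at a small part of any WT value. Basp1 encodes a myristoylated protein of the inner membrane face, known from growth cones of neurons and as a transcriptional cofactor, on chromosome 15 from 25363277 to 25413764 on the minus strand. Its level was 0.0519 and 0.156 TPM in Vim-KO cells with PBS, against 38.2 and 42.2 TPM in WT cells. With LPS Basp1 reached 2.86 and 2.76 TPM in Vim-KO cells, against 243.6 and 253.6 TPM in WT cells. Basp1 is the exception among the 8, since both Vim-KO LPS libraries were above both Vim-KO PBS libraries, although the Vim-KO means were 0.259% of the WT mean with PBS and 1.13% with LPS. The mean with LPS was 27.0 times that with PBS in Vim-KO cells, a ratio that starts from a very low PBS level, and 6.18 times in WT cells.

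Tfec, a basic helix-loop-helix factor of the MiT/TFE family that is found mainly in macrophages and osteoclasts, was listed at 0 in the 4 Vim-KO libraries. In WT cells its level was 19.3 and 18.4 TPM with LPS, against 9.58 and 9.57 TPM with PBS. The WT LPS libraries were the highest for Tfec and the WT groups overlapped neither each other nor the knockout. It lies on chromosome 6 from 16833373 to 16898441 on the minus strand. Gm48981, annotated as a processed pseudogene of 105 bases on chromosome 14 from 93982142 to 93982246 on the plus strand, was listed at 0 in the 4 Vim-KO libraries, against 27.2 and 33.2 TPM in WT cells with LPS and 14.8 and 15.7 TPM in WT cells with PBS. Its whole sequence is shown because other loci hold close copies of it, so that reads may be shared with them and how they were assigned is not stated: at least 95% of its length matched a transcript of 204 other genes, of which 127 matched at 90% identity or more, the best being Gm45739 at 97.1%. Its values are therefore uncertain wherever they appear. It holds no CG dinucleotide.
Gm48981: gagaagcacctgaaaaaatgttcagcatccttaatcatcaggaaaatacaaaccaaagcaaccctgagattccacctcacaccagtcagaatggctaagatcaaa

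The genes of protein turnover were listed at 0 in every Vim-KO library. Psma8, an alpha subunit of the 20S proteasome known from the testis as the counterpart of Psma7, had 0 TPM in all 4 Vim-KO libraries, against 15.6 and 14.05 TPM in WT cells with LPS and 22.9 and 25.5 TPM in WT cells with PBS. It lies on chromosome 18 from 14706151 to 14762301 on the plus strand. Ctla2b, which encodes a small cysteine protease inhibitor resembling the propeptide of cathepsins, also had 0 TPM in the 4 Vim-KO libraries, against 10.5 and 8.64 TPM in WT cells with LPS and 13.03 and 13.3 TPM in WT cells with PBS. For both genes every WT library was well above 0 and the WT LPS libraries were below the WT PBS libraries. Ctla2b lies on chromosome 13 from 60895350 to 60897447 on the minus strand. Its paralog Ctla2a has a transcript that is identical at 660 of 707 aligned bases (93.4%), so reads of the pair may be shared and how they were divided is not stated. Ctla2a was at 0 to 0.219 TPM in the Vim-KO libraries and at 0 to 0.233 TPM in the WT libraries at 12 h, ranges that overlap.

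**Figure D1:**
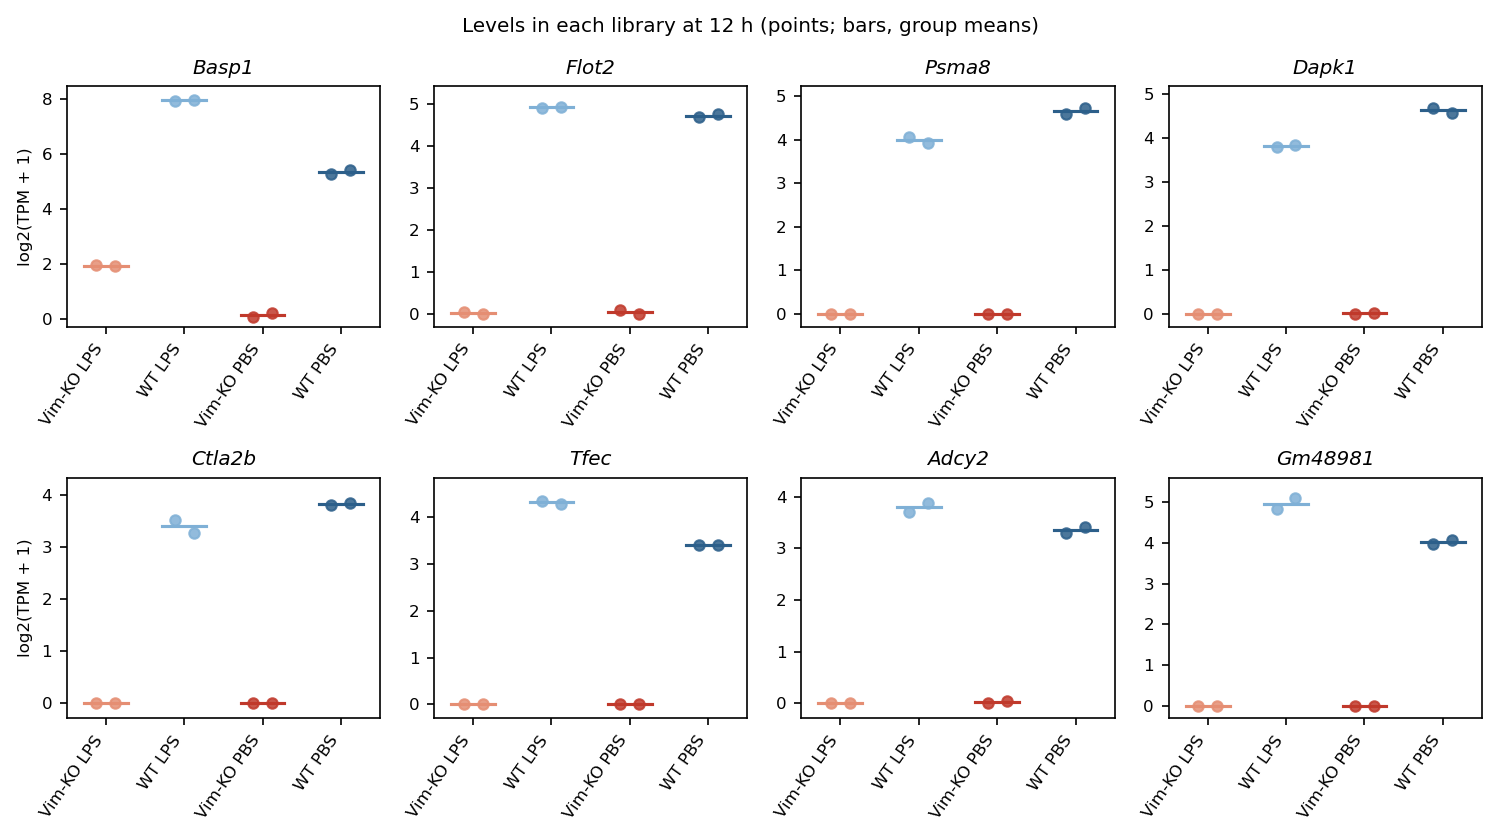
Level of each of the 8 genes in the 8 libraries at 12 h, as log2(TPM + 1), with a point per library and a bar at the group mean; Vim-KO groups stand left of the WT group with the same treatment. In the panels of 7 genes the Vim-KO points lie at or next to 0, and Basp1 alone has Vim-KO LPS points clearly above it, at 2.86 and 2.76 TPM.

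In total 24 of the 32 Vim-KO values of the 8 genes were listed at 0, and 4 genes (Ctla2b, Gm48981, Psma8 and Tfec) were at 0 in all 4 Vim-KO libraries. Apart from Basp1 the highest Vim-KO value was 0.0730 TPM, of Flot2, whereas WT values ran from 8.64 TPM, of Ctla2b, to 253.6 TPM, of Basp1. An exact 0 in TPM may be a failed estimate as well as no reads. Among all genes, 19099 were listed at 0 in the 4 Vim-KO libraries, and these 4 were the only ones of them with at least 5 TPM in each of the 4 WT libraries. In the opposite direction no gene was at 0 in all WT libraries with at least 5 TPM in each Vim-KO library. All 8 passed the filter of a mean of at least 1 TPM at 12 h, but 7 of them only through the WT libraries. For reference, 25.4% of the 11115 genes tested were lower and 17.7% higher in Vim-KO than in WT cells with PBS at an adjusted p under 0.05, and 20.6% were lower and 24.1% higher with LPS; since this contrast chose the 8, nothing is read from their place in it.

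Among WT cells with PBS at 12 h, where TPM allow levels of genes to be set side by side, Basp1 was highest, with a mean of 40.2 ± 2.83 TPM (SD, n = 2, as for all cell line means). Flot2 (25.5 ± 0.858 TPM), Psma8 (24.2 ± 1.86 TPM) and Dapk1 (23.6 ± 1.25 TPM) followed, and the values of neighbours in this order overlapped. Gm48981 (15.3 ± 0.675 TPM) and Ctla2b (13.2 ± 0.172 TPM) came next, without overlap between them. Tfec (9.57 ± 0.00552 TPM) lay within the 2 values of Adcy2 (9.25 ± 0.614 TPM). With LPS the order was Basp1, Gm48981, Flot2, Tfec, Psma8, Dapk1, Adcy2 and Ctla2b, where the values of Gm48981 and Flot2, and those of Dapk1 and Adcy2, overlapped.

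Other genes had the same shape. With limits of at least 5 TPM in each WT library and at most 0.5 TPM in each Vim-KO library, 15 genes passed, of which 7 are described above; Basp1 missed the limit in its LPS libraries. The reverse pattern was met by 1 gene, the formin Fmnl2, with 7.29 to 9.50 TPM in Vim-KO and 0.239 to 0.488 TPM in WT libraries (named after its values were seen). Of the other 8, Cd36, a scavenger receptor for lipids, was the most abundant, at 0 to 0.0358 TPM in Vim-KO libraries and 438.4 to 697.9 TPM in WT libraries. Cxcl16, a membrane-bound chemokine and scavenger receptor, ranged from 0 to 0.0989 TPM in Vim-KO and from 77.3 to 162.1 TPM in WT libraries. The Vim-KO and WT ranges of these 2 receptors were the farthest apart in TPM among the 15. Mcemp1, a membrane protein of myeloid and mast cells, was at 0.0662 to 0.409 TPM in Vim-KO and at 12.3 to 50.3 TPM in WT libraries. The phosphodiesterase Pde8a, which breaks down cyclic AMP, was at 0.0481 to 0.307 TPM in Vim-KO and at 6.15 to 19.9 TPM in WT libraries. Dse (a dermatan sulfate epimerase), Gda (guanine deaminase), B3galnt1 (a glycosyltransferase) and Cd48 (a surface receptor of leukocytes) made up the rest, at 0 to 0.433 TPM in Vim-KO and 5.603 to 15.9 TPM in WT libraries. Some were also low in WT cells at 24 h, such as B3galnt1 (0.169 to 2.25 TPM) and Cd48 (0.954 to 2.00 TPM). Others overlapped their WT range at 12 h there, such as Pde8a (6.06 to 15.1 TPM) and Gda (7.70 to 17.04 TPM). Just outside the limits lay Arrdc4, at 0 TPM in the 4 Vim-KO libraries but with a lowest WT value of 2.59 TPM. The count depended on the limits, at 26 genes with 2 and 0.2 TPM and 7 genes with 10 and 0.5 TPM, against 4 and 0 genes in reverse.

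**Figure D2:**
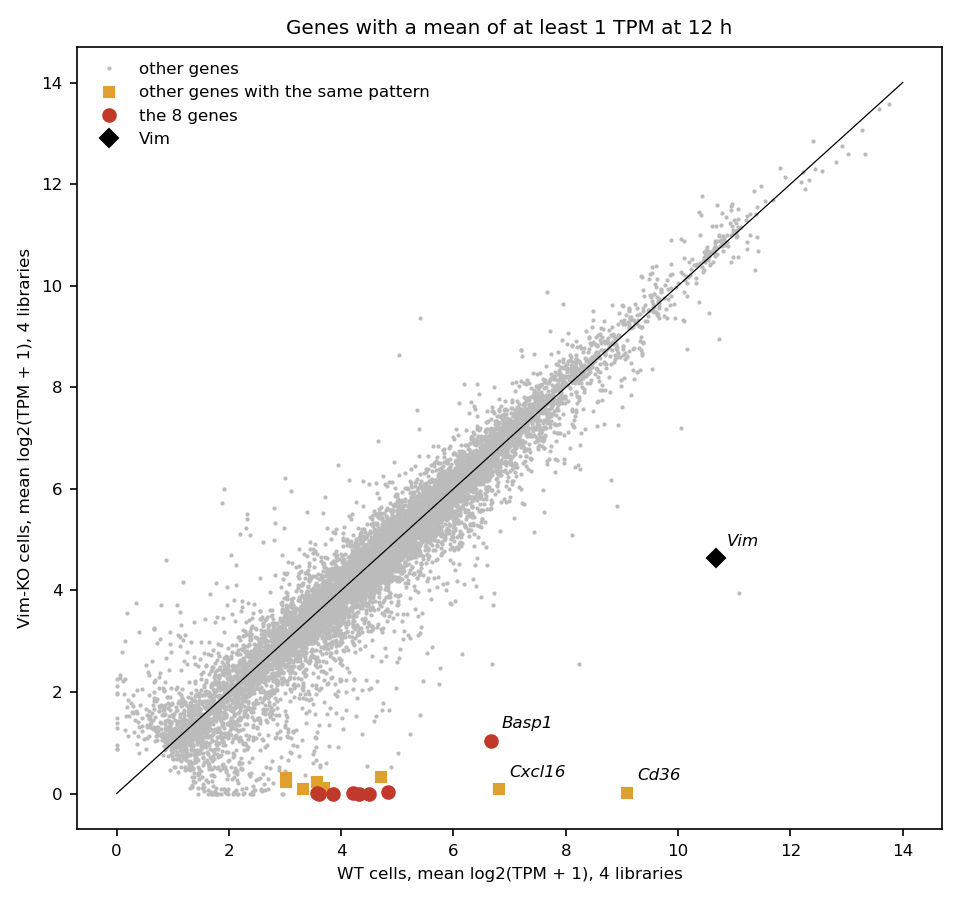
Mean log2(TPM + 1) over the 4 Vim-KO libraries (vertical axis) against that over the 4 WT libraries (horizontal axis), over genes averaging 1 TPM or more at 12 h, with a line where both are equal. Of the 8 genes (circles) 7 lie along the lower edge with the 8 other genes within the limits (squares), and Basp1 and Vim lie above it.

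The position of the genes on the chromosomes was examined next, to see whether genes around them were lower too. The 31 genes that met these limits or those of 2 and 0.2 TPM, or are among the 8, lie on 17 chromosomes, and the pairs within 1 Mb were Ctla2b with Dapk1 (132 kb apart) and Cxcl16 with Zmynd15 (overlapping spans); this was looked at after the values were seen. Within 1 Mb of the 8 genes 63 other genes had a WT mean of at least 1 TPM, of which 61 were tested. With PBS 10 of the 61 were higher (16.4%, against 17.7% of all genes tested) and 15 lower (24.6%, against 25.4%) in Vim-KO than in WT cells. With LPS 14 were higher (23.0%, against 24.1%) and 6 lower (9.84%, against 20.6%). Of the 61, however, 37 lie near Flot2 (5 higher and 10 lower with PBS, 7 higher and 3 lower with LPS), none lies near Gm48981, and the only one near Ctla2b is also near Dapk1. The pooled shares are thus mostly those of the surroundings of Flot2. The shares with PBS were near those of all genes, and the share that was lower with LPS was below it. Neighbours were taken by their WT mean, whereas all genes were filtered on the mean over both genotypes. A gene expressed in Vim-KO cells alone could therefore not be counted as a higher neighbour. The exception among the neighbours was Cav2, which encodes caveolin-2 and lies 383 kb from Tfec, as the only one at or below 0.5 TPM in all 4 Vim-KO libraries. Cav2 was at 0.346 and 0.137 TPM in Vim-KO cells with PBS, against 12.4 and 10.5 TPM in WT cells (log2 fold change -3.33 ± 0.19 (SE), adjusted p = 7.71e-06). With LPS it was at 0 in both Vim-KO libraries, against 1.65 and 1.04 TPM in WT cells (-1.22 ± 0.19, adjusted p = 0.00146).

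Expressed neighbours stood close to several of the genes. Dhrs13, a short-chain dehydrogenase, ends 64 bases before Flot2 begins, and was at 18.7 TPM in Vim-KO cells and 12.4 TPM in WT cells with PBS (means, log2 fold change 0.55 ± 0.14, adjusted p = 0.014). With LPS Dhrs13 was at 6.37 TPM in Vim-KO and 8.19 TPM in WT cells (-0.31 ± 0.14, adjusted p = 0.0999). Eral1, a mitochondrial ribosome assembly factor 12.9 kb after Flot2, had 20.7 TPM in Vim-KO and 20.04 TPM in WT cells with PBS. Around Psma8, Ss18 (23.2 kb away, a chromatin remodelling subunit) had 62.9 TPM in Vim-KO and 63.9 TPM in WT cells with PBS, and Taf4b (20.9 kb, a TFIID subunit) had 11.4 TPM in Vim-KO and 8.58 TPM in WT cells. With LPS Taf4b was higher in the knockout, at 7.39 TPM in Vim-KO and 4.23 TPM in WT cells (0.67 ± 0.13, adjusted p = 0.00403). The neighbours of Flot2 and Psma8 were thus expressed in the cells where those genes were at or next to 0. Fastkd3, 27.7 kb from Adcy2, had 23.4 TPM in Vim-KO and 20.6 TPM in WT cells with PBS. Tes, 167 kb from Tfec, had 110.0 TPM in Vim-KO and 64.9 TPM in WT cells with PBS (0.75 ± 0.083, adjusted p = 0.000245). Near Basp1 the unconventional myosin Myo10 (209 kb) had 21.8 TPM in Vim-KO and 37.6 TPM in WT cells with PBS; with LPS it had 30.6 TPM in Vim-KO and 78.9 TPM in WT cells (-1.34 ± 0.091, adjusted p = 2.14e-05). A further 3 neighbours were lower by at least 2-fold with PBS, all of them near Flot2: Aldoc (-1.55 ± 0.12), Nos2 (-1.19 ± 0.13) and Lgals9 (-1.88 ± 0.12), whose log2 fold changes with LPS were -0.92, 0.59 and -0.22. No neighbour past the threshold was higher by a log2 fold change of 1 or more with either treatment, but Nsun2 lay at that limit. Nsun2, 534 kb from Adcy2, had 267.6 TPM in Vim-KO and 133.2 TPM in WT cells with LPS (0.9993 ± 0.070, adjusted p = 2.56e-05). These counts hold only for neighbours expressed in WT cells, since those expressed in Vim-KO cells alone were left out in advance. Inside the span of Dapk1 the pseudogene Gm48583 was listed at 15.2 to 62.3 TPM in Vim-KO libraries and at 0 to 47.4 TPM in WT libraries at 12 h, ranges that overlap. At least 95% of its 220 bases matched a stretch of Rbm3 at 100% identity, so that reads within this match cannot be told apart from those of Rbm3.

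**Figure D3:**
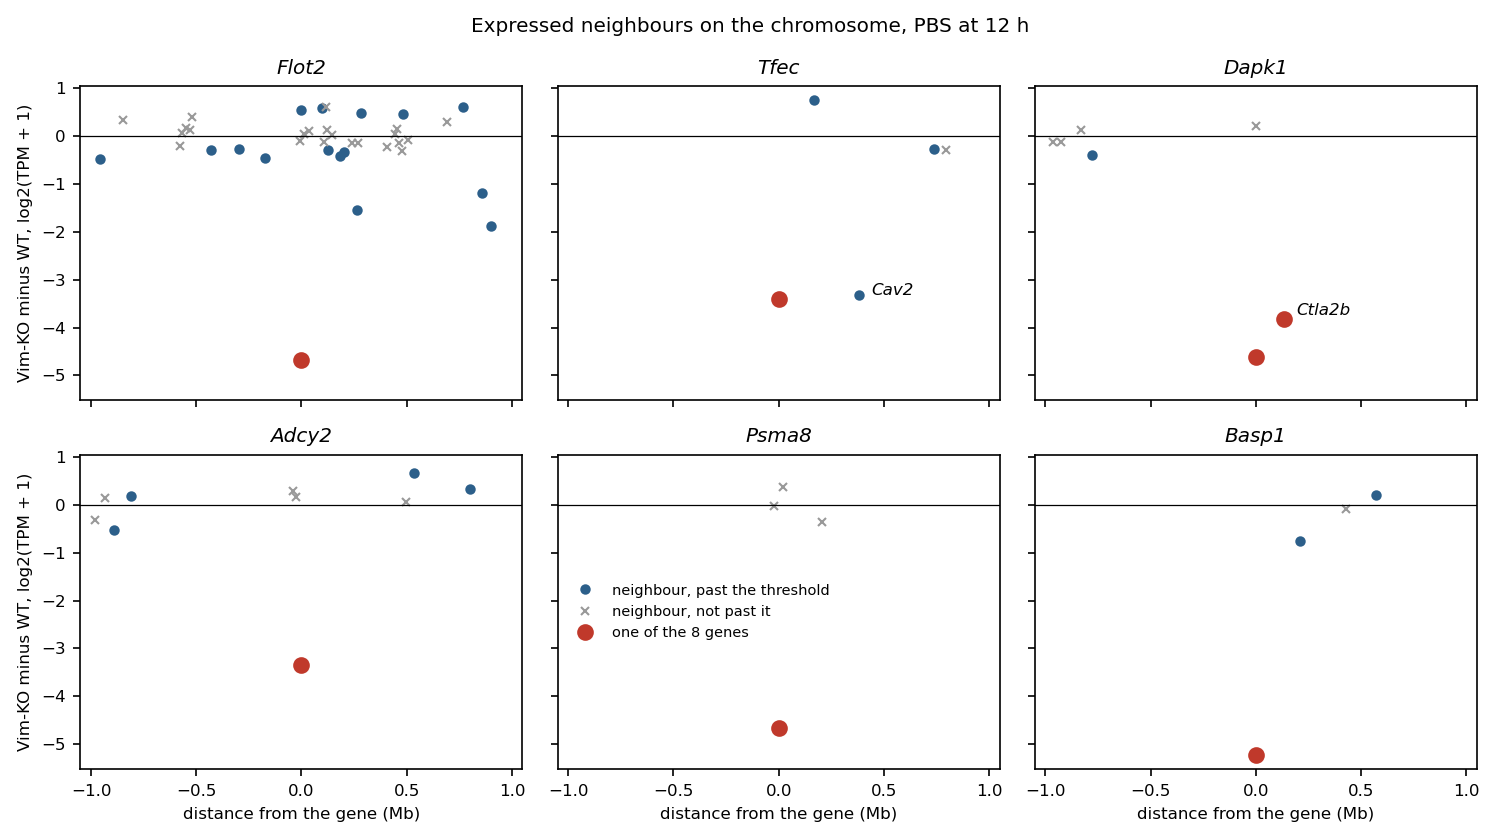
Difference of log2(TPM + 1) between Vim-KO and WT cells with PBS at 12 h for expressed neighbours within 1 Mb of 6 of the 8 genes, against distance along the chromosome (Mb, higher coordinates to the right). Filled points passed the threshold of an adjusted p under 0.05 and crosses did not. The large points are these 6 genes and, in the Dapk1 panel, Ctla2b, while Gm48981 is not drawn. Cav2 at -3.33 lies lowest among the neighbours.

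The bases before the genes differed in base composition. In the 250 bases before the annotated start (RefSeq, GRCm38.p6), which 6 of the 8 genes have in the table used here, the dinucleotide CG was counted, which reads the same on both strands. Dapk1 had 33 (3.84% of 27025 genes had at least as many), Basp1 30 (5.63%), Adcy2 23 (13.0%) and Flot2 13 (31.8%), whereas Ctla2b had 3 (70.4%) and Tfec 2 (80.6%), and the median over all genes was 6. Genes with CG-rich and with CG-poor upstream bases are thus both among those near 0 in Vim-KO cells. For Dapk1 the bases lie at least in part (60602111 to 60602210) inside the span given above, since the 2 annotations differ in its start. The stretch between Dhrs13, which was expressed in Vim-KO cells, and Flot2, which was at or next to 0 there, is shown first (chr11:78037867-78037930, plus strand), followed by the upstream bases of the CG-rich Basp1 (chr15:25413765-25414014) and the CG-poor Tfec (chr6:16898442-16898691) and Ctla2b (chr13:60897448-60897697), all on the minus strand. Each runs 5′ to 3′ towards its gene, and capitals mark CG.
Flot2: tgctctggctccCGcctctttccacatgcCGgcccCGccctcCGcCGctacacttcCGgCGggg
Basp1: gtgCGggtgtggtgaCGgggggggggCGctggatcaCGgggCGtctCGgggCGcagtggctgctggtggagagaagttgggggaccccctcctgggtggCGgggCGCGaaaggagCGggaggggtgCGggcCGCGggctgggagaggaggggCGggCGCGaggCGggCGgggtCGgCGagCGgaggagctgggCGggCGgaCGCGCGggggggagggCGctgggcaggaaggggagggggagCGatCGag
Tfec: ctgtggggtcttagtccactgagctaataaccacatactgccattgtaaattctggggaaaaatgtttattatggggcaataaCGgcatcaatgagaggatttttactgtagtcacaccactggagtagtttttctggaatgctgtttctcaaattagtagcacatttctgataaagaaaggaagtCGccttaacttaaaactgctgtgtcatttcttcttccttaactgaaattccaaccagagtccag
Ctla2b: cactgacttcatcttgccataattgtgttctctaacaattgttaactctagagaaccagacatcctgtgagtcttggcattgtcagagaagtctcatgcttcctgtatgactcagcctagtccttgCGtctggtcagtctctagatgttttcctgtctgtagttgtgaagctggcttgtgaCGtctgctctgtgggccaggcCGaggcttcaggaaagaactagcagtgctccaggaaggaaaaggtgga

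LPS against PBS in WT cells at 12 h asks how the 8 genes respond to activation where they are expressed, a contrast that did not choose them. The same WT libraries did take part in the choice, however. The spread in the fit was also shared with the Vim-KO libraries, which hold no spread for the 4 genes at 0 there. The SE and adjusted p of the 8 genes are therefore not free of the choice. Basp1, Tfec, Gm48981 and Adcy2 were higher with LPS, Ctla2b, Psma8 and Dapk1 were lower, and Flot2 did not pass. Of all 11115 genes tested 17.8% were higher and 53.1% lower. Basp1 had the largest change, at 2.60 ± 0.096 (log2 fold change ± SE, adjusted p = 2.31e-07), followed by Gm48981 at 0.93 ± 0.14 (adjusted p = 0.000392) and Tfec at 0.91 ± 0.12 (adjusted p = 0.000273). Dapk1 changed by -0.81 ± 0.12 (adjusted p = 0.000464) and Psma8 by -0.67 ± 0.13 (adjusted p = 0.00172). Adcy2 (0.44 ± 0.14, adjusted p = 0.0191) and Ctla2b (-0.43 ± 0.14, adjusted p = 0.0257) changed least of the 7 that passed. Both calls depended on single libraries. Without the first PBS library or the second LPS library the adjusted p of Adcy2 was 0.108 and 0.117. Without the first or second PBS library, or the second LPS library, that of Ctla2b was 0.0879, 0.103 and 0.163.

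Scaling bears on these directions. The median log2 fold change of all genes was -0.35 as listed, which median-of-ratios scaling removed (a shift of -0.35). The share of higher genes among those past the threshold was 51.1% after scaling against 25.2% as listed. Relative to that shift Adcy2, Tfec, Gm48981 and Basp1 were higher by 0.79, 1.26, 1.30 and 2.98 and Flot2 by 0.57 (adjusted p = 0.00216). Dapk1 was still lower (-0.45, adjusted p = 0.00977). Psma8 at -0.31 (adjusted p = 0.0631) and Ctla2b at -0.07 (adjusted p = 0.677) did not pass.

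In WT cells at 24 h, in libraries that took no part in choosing the genes, all 8 were listed, and 5 of them (Adcy2, Basp1, Dapk1, Flot2 and Psma8) were at 1 TPM or more in each of the 6 libraries. Basp1 stood at 350.3 and 357.4 TPM with LPS, against 42.6 and 52.9 TPM with PBS (2.87 ± 0.11, adjusted p = 1.47e-06). Both LPS libraries were far above both PBS libraries, as at 12 h. Ctla2b was at 7.44 and 7.87 TPM with LPS, against 0.936 and 1.72 TPM with PBS (1.91 ± 0.32, adjusted p = 0.00151). Adcy2 was at 3.44 and 2.95 TPM with LPS, against 1.29 and 1.501 TPM with PBS (0.81 ± 0.20, adjusted p = 0.00919). The LPS libraries of these 2 genes were above the PBS libraries without overlap. Gm48981 was listed at 0 in both LPS libraries, against 44.8 and 14.5 TPM with PBS (adjusted p = 0.000156), a difference among PBS libraries that is itself large. The other 4 genes did not pass. Dapk1 was at 20.8 and 18.98 TPM with LPS, against 19.9 and 22.9 TPM with PBS (-0.10 ± 0.12), values that overlap. Psma8 was at 9.21 and 9.69 TPM with LPS, against 10.4 and 10.99 TPM with PBS (-0.16 ± 0.12). Tfec was at 0.911 and 1.054 TPM with LPS, against 0.691 and 0.813 TPM with PBS (0.18 ± 0.21). For Psma8 and Tfec the groups did not overlap, but the gaps were small against the error of the fit. Flot2 was at 17.9 and 18.3 TPM with LPS, against 13.9 and 15.98 TPM with PBS (0.26 ± 0.12, adjusted p = 0.0972). In all 20.9% of the 11030 genes tested were higher and 45.1% lower. The median of all genes was -0.23 as listed, a shift of -0.24 from that after scaling, and the higher share of calls was 50.7% after scaling, against 31.6% as listed. Flot2 was then higher by 0.51 (adjusted p = 0.00948), and the other 7 calls were as before, with Dapk1 at 0.15 and Psma8 at 0.07, values above 0 that did not pass.

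LPS plus CTM against LPS at 24 h, which shares the LPS libraries with the comparison above, asks how the compound alters levels in activated cells. Basp1 was lower and Psma8 and Gm48981 were higher. Basp1 stood at 155.6 and 134.04 TPM with LPS plus CTM, against 350.3 and 357.4 TPM with LPS (-1.29 ± 0.11, adjusted p = 0.000656), and so between its LPS and PBS levels. Psma8 was at 15.8 and 13.8 TPM with LPS plus CTM, against 9.21 and 9.69 TPM with LPS (0.60 ± 0.12, adjusted p = 0.011), without overlap. Leaving out the LPS plus CTM library numbered 2 ended that call (adjusted p = 0.0719). Gm48981 was at 14.8 and 6.94 TPM with LPS plus CTM, against 0 in both LPS libraries (adjusted p = 0.00375). Tfec was at 1.76 and 1.57 TPM with LPS plus CTM, against 0.911 and 1.054 TPM with LPS (0.43 ± 0.21, adjusted p = 0.182; 0.028 in limma without the mean-variance trend). Ctla2b was at 6.497 and 2.83 TPM with LPS plus CTM, against 7.44 and 7.87 TPM with LPS (-0.69 ± 0.32, adjusted p = 0.158). Its libraries with CTM were wide apart, and without that numbered 2 the adjusted p was 0.0382. Adcy2 was at 2.07 and 2.81 TPM with LPS plus CTM, against 3.44 and 2.95 TPM with LPS (-0.29 ± 0.20). Flot2 was at 16.03 and 13.3 TPM with LPS plus CTM, against 17.9 and 18.3 TPM with LPS (-0.29 ± 0.12). Dapk1 was at 17.3 and 14.6 TPM with LPS plus CTM, against 20.8 and 18.98 TPM with LPS (-0.30 ± 0.12, adjusted p = 0.11; 0.049 after scaling). None of these last 3 passed as listed. Of the 11030 genes tested 16.1% were higher and 9.45% lower, and scaling moved the higher share of calls to 45.3%, against 63.1% as listed.

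**Figure D4:**
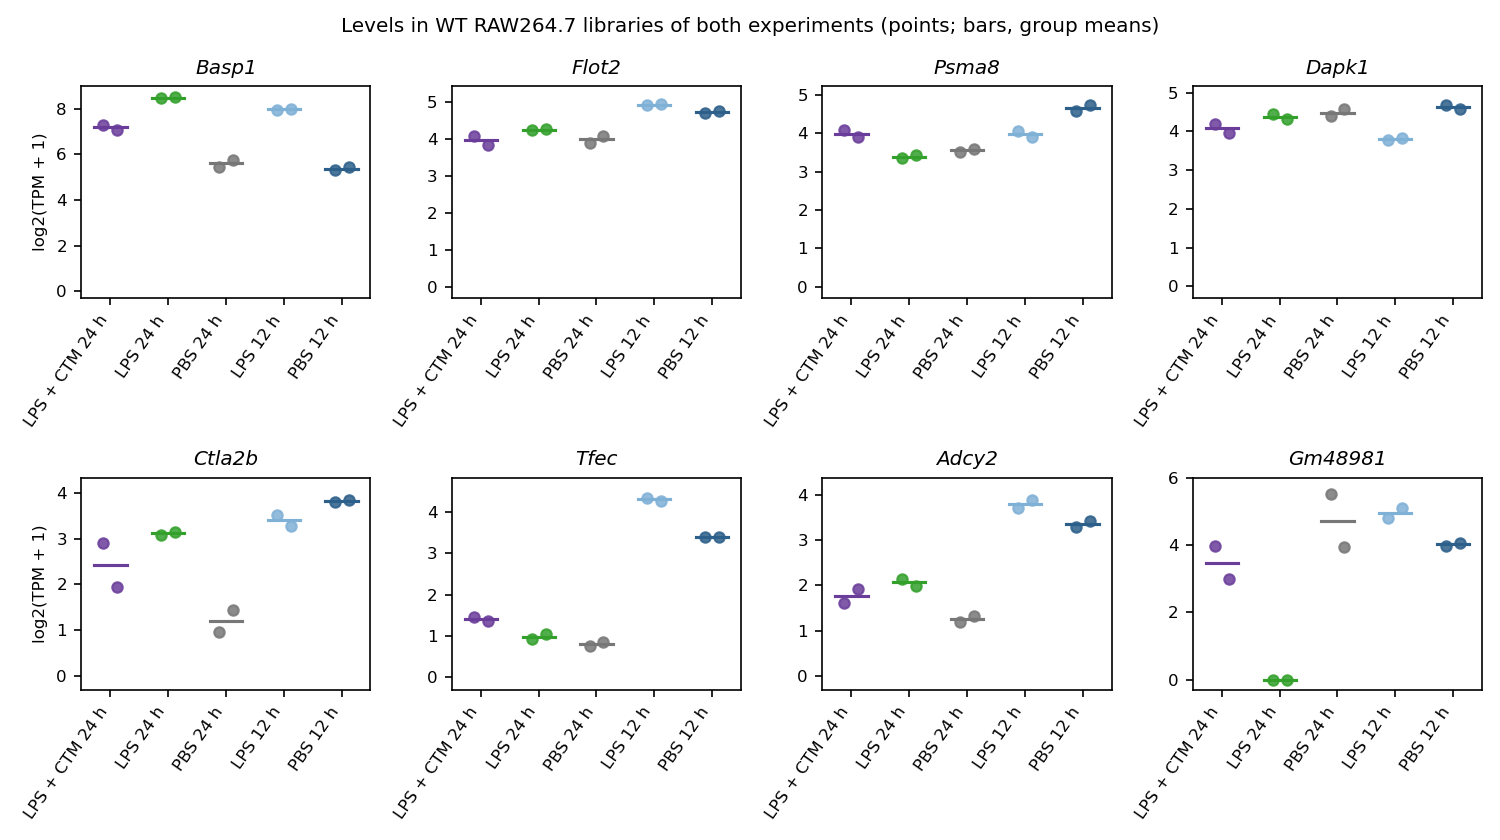
Level of each of the 8 genes in WT libraries, as log2(TPM + 1), with a point per library and a bar at the group mean, from the 24 h experiment (LPS plus CTM, LPS, PBS) and the 12 h experiment (LPS, PBS). Tfec lies between 0.691 and 1.76 TPM at 24 h and between 9.57 and 19.3 TPM at 12 h, and Basp1 is highest with LPS in both experiments.

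The 2 WT experiments gave unequal levels of some of the genes. They differ in time, extraction date and normalization, which cannot be told apart, so the ratios are set side by side without a test. With PBS the mean TPM at 24 h and at 12 h were 0.752 and 9.57 for Tfec (12 h over 24 h, 12.7), 1.33 and 13.2 for Ctla2b (9.90) and 1.39 and 9.25 for Adcy2 (6.64). The ratio was nearer to 1 for Psma8 (2.26), Flot2 (1.71), Dapk1 (1.10), Basp1 (0.842) and Gm48981 (0.515). Tfec, Ctla2b and Adcy2 were therefore low in WT cells with PBS at 24 h as well, though above their Vim-KO values at 12 h. With LPS the ratio was 19.2 for Tfec, 4.04 for Adcy2 and 1.25 for Ctla2b.

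In liver 4 of the 8 genes were listed, in a table limited to genes whose WT LPS and WT PBS values differ by 2-fold or more, so that this difference was fixed by the listing. Each group is 1 library, and no difference has a replicate check. In a whole tissue, fewer cells of a type and less RNA per cell cannot be told apart. Flot2 was at 64.8 TPM with LPS and 32.8 TPM with PBS in TG2-KO liver, and at 71.6 TPM with LPS and 31.6 TPM with PBS in WT liver. It was at 69.5 TPM with LPS plus CTM, and at 45.2 TPM with and 54.0 TPM without macrophage depletion under LPS. Flot2 was thus the most abundant of the 4 in each liver library. Basp1 was at 5.08 TPM with LPS and 0.78 TPM with PBS in TG2-KO liver, and at 4.32 TPM with LPS and 0.95 TPM with PBS in WT liver. It was at 4.28 TPM with LPS plus CTM, and at 1.28 TPM with and 2.54 TPM without macrophage depletion. Every liver with LPS was above both PBS livers for Basp1, the depleted one by the least. Ctla2b was at 1.33 TPM with LPS and 1.24 TPM with PBS in TG2-KO liver, and at 3.87 TPM with LPS and 1.22 TPM with PBS in WT liver. It was at 5.38 TPM with LPS plus CTM, and at 1.28 TPM with and 8.36 TPM without macrophage depletion. The TG2-KO and depleted livers with LPS were the ones near the PBS level for Ctla2b; the TG2-KO livers were extracted on a date of their own, which cannot be told apart from the genotype. Dapk1 was at 3.11 TPM with LPS and 6.13 TPM with PBS in TG2-KO liver, and at 1.48 TPM with LPS and 8.26 TPM with PBS in WT liver. It was at 2.62 TPM with LPS plus CTM, and at 3.33 TPM with and 1.90 TPM without macrophage depletion, and so below both PBS livers in every liver with LPS.

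Genes related to the 8 by family or pathway, in 7 lists, were compared between Vim-KO and WT cells at 12 h to place the 8 among their partners. These lists were drawn up by function, with earlier results of these data known, and are described by counts. Of all 11115 genes tested 17.7% were higher and 25.4% lower with PBS, and 24.1% were higher and 20.6% lower with LPS. The list for Adcy2 holds Pde8a, which was described above for its pattern. In the list on adenylyl cyclases and cyclic AMP signalling, for Adcy2, 4 of 16 genes tested were higher, 4 lower and 8 did not pass with PBS, and 2 were higher, 7 lower and 7 did not pass with LPS. Its median log2 fold change was -0.17 with PBS and -0.08 with LPS, against -0.05 and 0.04 over all genes. Pde8a (-2.73 ± 0.13 with PBS, -3.94 ± 0.13 with LPS) was lower, as was Prkacb, a catalytic subunit of protein kinase A (-0.76 ± 0.10 and -1.24 ± 0.10). The regulatory subunit Prkar2b was higher, at 44.3 TPM in Vim-KO and 15.3 TPM in WT cells with PBS (1.47 ± 0.097).

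In the list of cysteine cathepsins and their inhibitors, for Ctla2b, 2 of 11 were higher and 6 lower with PBS, and 2 higher and 7 lower with LPS, with medians of -0.48 and -0.63. The 2 higher genes were Ctsh and Cst7, a cystatin-type inhibitor (1.21 ± 0.093 with PBS, 1.25 ± 0.093 with LPS). Ctsh stood at 639.1 and 604.7 TPM in Vim-KO cells, against 66.7 and 74.4 TPM in WT cells with PBS (3.12 ± 0.13, adjusted p = 1.61e-06). With LPS it stood at 253.8 and 246.1 TPM in Vim-KO cells, against 12.0 and 16.4 TPM in WT cells (4.06 ± 0.13). Ctsc, which activates granule serine proteases, was at 31.1 and 37.4 TPM in Vim-KO cells, against 160.4 and 157.1 TPM in WT cells with PBS (-2.18 ± 0.12). With LPS Ctsc was at 165.2 and 133.2 TPM in Vim-KO cells, against 1203 and 1320 TPM in WT cells (-3.08 ± 0.12). The Vim-KO and WT groups did not overlap for Ctsh or Ctsc with either treatment, and Ctsf was lower too (-1.88 ± 0.11 with PBS, -0.74 ± 0.11 with LPS).

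Few genes in the list of death-associated protein kinases and partners, for Dapk1, moved by much. With PBS 2 of 11 were higher and 2 lower, and with LPS 1 was higher and 6 lower, with medians of -0.07 and -0.16. The 4 calls with PBS were 2 without the first Vim-KO, the second Vim-KO or the second WT PBS library. The largest were the ribosomal S6 kinases Rps6ka3 (-0.45 ± 0.13 with PBS, -0.58 ± 0.13 with LPS) and Rps6ka1 (0.48 ± 0.083 with LPS), and the myosin light chain Myl12a (0.40 ± 0.053 with PBS). In the list of flotillin and raft genes, for Flot2, 1 of 9 was higher and 5 lower with either treatment, with medians of -0.32 and -0.47. Besides Cav2, described above, Stoml1 was lower (-1.08 ± 0.10 with PBS, -1.11 ± 0.10 with LPS). Flot1, the partner with which flotillin-2 assembles, was at 6.505 and 6.97 TPM in Vim-KO cells, against 7.28 and 9.53 TPM in WT cells with PBS. With LPS it was at 8.81 and 8.96 TPM in Vim-KO cells, against 6.78 and 8.24 TPM in WT cells, and it did not pass with either treatment (-0.27 ± 0.14 and 0.22 ± 0.14, adjusted p = 0.166 with PBS and 0.25 with LPS).

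Of the 21 genes of the 20S proteasome and its activators, for Psma8, 8 were higher and 6 lower with PBS, and 2 higher and 5 lower with LPS, with medians of 0.16 and -0.02. The immunoproteasome subunits Psmb9 (-1.07 ± 0.097) and Psmb8 (-0.79 ± 0.059) were lower with PBS and Psma3 was higher (0.99 ± 0.13). Of the MiT/TFE factors and their targets, for Tfec, 1 of 12 was higher and 10 lower with PBS, and 0 higher and 7 lower with LPS, with medians of -0.62 and -0.42. Without the first Vim-KO PBS or the first WT PBS library the 11 calls with PBS were 7. The acid phosphatase Acp5 was at 0.583 TPM in Vim-KO and 6.00 TPM in WT cells with PBS (-2.16 ± 0.16). With LPS Acp5 was at 0.321 TPM in Vim-KO and 6.89 TPM in WT cells (-2.58 ± 0.16). Tfeb, the lysosomal regulator of the same family as Tfec, was lower as well (-1.03 ± 0.12 and -1.33 ± 0.12). The glycoprotein gene Gpnmb was higher with PBS, at 407.6 TPM in Vim-KO and 72.2 TPM in WT cells (2.48 ± 0.080), and did not pass with LPS, at 11.1 TPM in Vim-KO and 10.3 TPM in WT cells. The macrophage marker sum at 12 h given above moved in the same direction as most of this list with PBS. Both include the gene Spi1, and the part of that sum was not tested.

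Of the MARCKS-type proteins and partners, for Basp1, 4 of 9 were higher and 1 lower with PBS, and 2 higher and 4 lower with LPS, with medians of 0.07 and -0.09. Marcks, which like Basp1 binds phosphoinositides at the inner membrane face, had the largest change. With PBS it was at 0 in both Vim-KO libraries, against 0.0795 and 0.191 TPM in WT cells (adjusted p = 0.401). With LPS it was at 0.928 and 0.695 TPM in Vim-KO cells, against 14.4 and 16.9 TPM in WT cells (-3.20 ± 0.16, adjusted p = 4.76e-06). Marcks and Basp1 were both highest in the WT LPS libraries at 12 h and both above their PBS level in the Vim-KO LPS libraries. The related Marcksl1 was higher with PBS (0.36 ± 0.10) and lower with LPS (-0.68 ± 0.10), and Myc was lower with PBS (-0.73 ± 0.12).

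**Figure D5:**
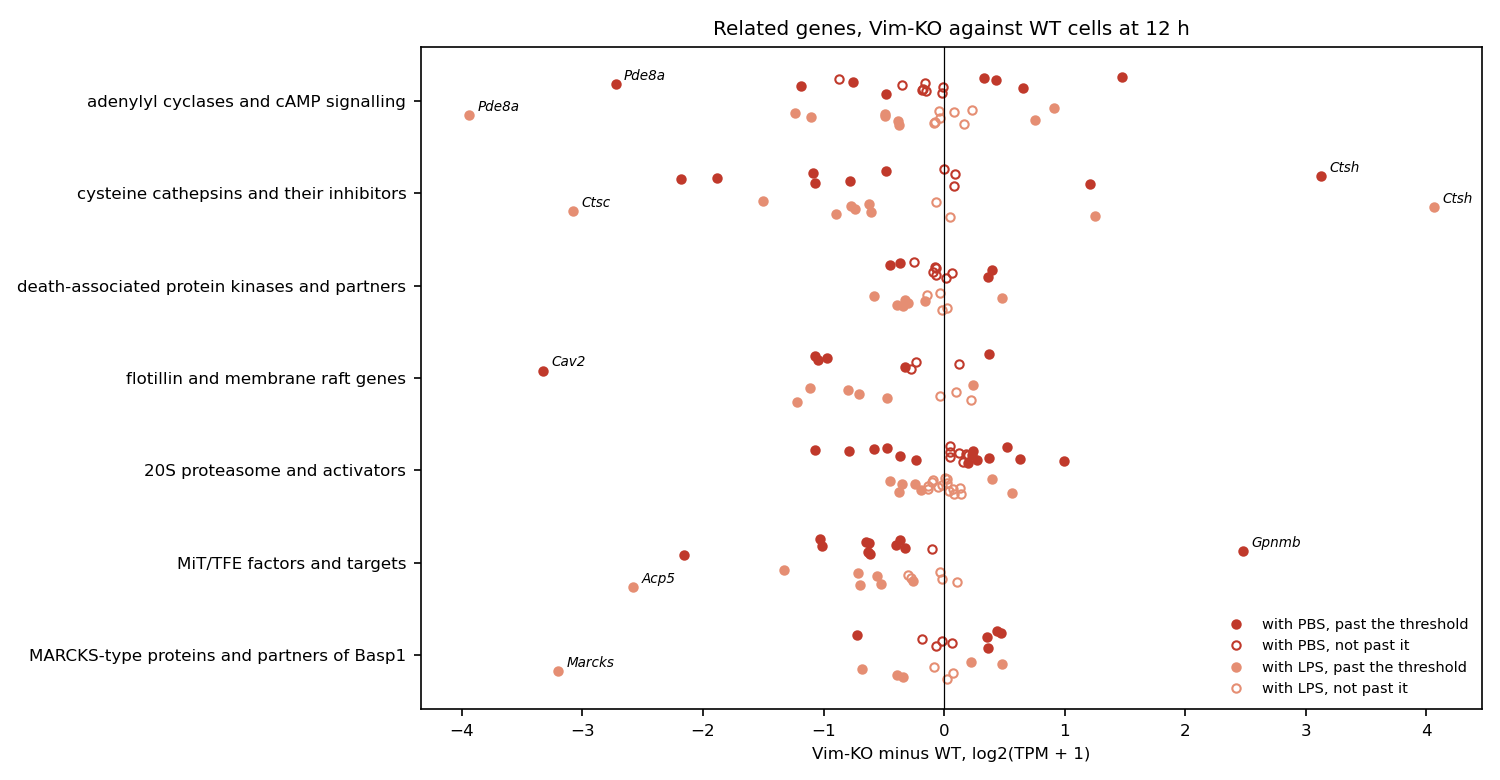
Difference of log2(TPM + 1) between Vim-KO and WT cells at 12 h for each gene tested of the 7 lists, with PBS in the upper and LPS in the lower row of each list. Filled points passed an adjusted p under 0.05 and open points did not; the points farthest from 0 are named, among them Ctsh at 3.12 and 4.06 and Marcks at -3.20 with LPS.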

How the data were processed

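Values are TPM per gene symbol, deposited by the authors and made with Salmon; per the submitters' processing notes the builds are mm10 and GRCm38; versions and the annotation are not given in the sources used here. Libraries came from a stranded mRNA kit, per the labels' protocols. TPM keep no read depth, so counting error is unknown. Libraries were grouped by the labels. At 24 h the LPS and LPS plus CTM columns carry the numbers 2 and 3 where the labels have 1 and 2, so they were assigned to a group only. Liver values have 2 decimals.

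Genes averaging 1 TPM or more in an experiment entered the test. It used log2(TPM + 1), with all groups of the experiment in a linear model with a mean-variance trend (limma 3.58.1, R 4.3.3), Benjamini-Hochberg adjustment over all genes tested and a threshold of 0.05. Fold changes are on that scale, which understates changes of low genes. The model was tested on simulated data. Positions are from GENCODE for GRCm38, upstream bases from RefSeq (GRCm38.p6), and transcript matches from blastn 2.17.0 and Biopython 1.88. The 8 genes and all lists were chosen with earlier results of these data known. Besides Vim and the 8 genes, the text names up to 10 genes of the same pattern, up to 3 genes of each list past the threshold with the largest change, nearest expressed neighbours, and up to 5 neighbours past the threshold changed at least 2-fold. Flot1, Ctla2a, Fmnl2, Arrdc4, Zmynd15, Gm48583, Cst7, Tes and Nsun2 were named for their relation to these. A gene that these rules take in is not reported here. As alternatives the pseudocount was 0.1, the filter was dropped or set at 5 TPM, and the following were tried: median-of-ratios scaling, no trend, the contrast's groups alone, a replicate block, each library left out, and other limits and windows.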

Additional observations from a re-analysis of the deposited data

Results flagged for a closer look

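As listed, the difference between LPS and PBS in WT cells had opposite signs in the 2 experiments for 2 of the 8 genes. For Ctla2b the log2 fold change of LPS against PBS was -0.43 at 12 h and 1.91 at 24 h, with both LPS libraries below both PBS libraries at 12 h and above them at 24 h. The 12 h value was -0.07 after median-of-ratios scaling (limma, adjusted p = 0.677), and its call was also lost with a pseudocount of 0.1 TPM (0.204) and with each of 3 libraries left out in turn (0.0879, 0.103 and 0.163). For Gm48981 it was 0.93 at 12 h and -4.73 at 24 h; the second value rests on 0 TPM in both LPS libraries and depends on the pseudocount, so it is no bound on the fold, and reads of this pseudogene may be shared with close copies at other loci. The difference between the experiments was not tested, as their tables were normalized separately and differ in time and extraction date.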

How the results depend on the processing

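Median-of-ratios scaling turned the sign of 2 values, neither past the threshold before or after: for LPS against PBS at 24 h Dapk1 was at 0.146 (-0.10 as listed) and Psma8 at 0.071 (-0.165 as listed). No other LPS or LPS plus CTM value of the 8 genes changed sign under the alternatives run. Of the values recomputed, 116 of 128 for LPS against PBS at 12 h, 92 of 93 at 24 h and 97 of 101 for LPS plus CTM against LPS kept their side of the threshold. With a pseudocount of 0.1 TPM the 12 h calls of Adcy2 (adjusted p = 0.195) and Ctla2b (0.204) were lost. Flot2 passed at 12 h without the trend (0.0438) and with the 2 groups alone (0.0495). For all genes, 2823 calls of LPS plus CTM against LPS were 1680 without the LPS library numbered 3, and 1525 and 1094 without the LPS plus CTM library numbered 2 or 3, a range over libraries left out of 1094 to 2330. The ranges were 6800 to 8208 (7881 in full) for LPS against PBS at 12 h, 6050 to 7048 (7277) at 24 h, and 3226 to 5323 (4782) and 3716 to 4652 (4966) for Vim-KO against WT with PBS and LPS. The number of genes with the same pattern was 26 and 7 with other limits, against 15. Neighbours past the threshold were 14 within 0.5 Mb and 42 within 2 Mb with PBS (25 within 1 Mb), and 13 and 33 with LPS (20 within 1 Mb). Same-numbered libraries did not deviate together (correlations of -0.219 to 0.0982 over the 6 pairs of groups at 12 h, and -0.0312 for LPS plus CTM against LPS). No pairing by number was thus seen, though these values cannot exclude that same-numbered libraries were made together. With a replicate block the calls were 7677 for LPS against PBS and 4393 and 4603 for Vim-KO against WT with PBS and LPS at 12 h, and 2204 for LPS plus CTM against LPS, and no call of the 8 genes changed; LPS and PBS at 24 h share too few numbers for a block. With crossed pairing, added after seeing the data, they were 8317 for LPS against PBS and 5012 for Vim-KO against WT with LPS at 12 h. Causes were not tested. Of 217 list counts recomputed, 212 stayed within 1.5 times the reported one.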

Other observations

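Ctsh, Fmnl2 and Cd36, outside the set, had WT levels at 24 h that were nearer, by difference in TPM, to the Vim-KO than to the WT level at 12 h. They are examples and not a full list, since B3galnt1 and Cd48 above were of this kind too. They were chosen after their values were seen, and the tables were normalized separately. Ctsh, a lysosomal cysteine protease, stood at 639.1 and 604.7 TPM in Vim-KO cells with PBS at 12 h, against 66.7 and 74.4 TPM in WT cells at 12 h, while WT cells with PBS at 24 h had 851.5 and 848.5 TPM. The formin Fmnl2 was at 7.29 to 9.50 TPM in Vim-KO libraries and at 0.239 to 0.488 TPM in WT libraries at 12 h, and at 7.79 to 29.5 TPM in WT libraries at 24 h. Cd36 was at 0 to 0.0358 TPM in Vim-KO libraries and at 438.4 to 697.9 TPM in WT libraries at 12 h, and at 7.42 to 29.0 TPM in WT libraries at 24 h. Every Cd36 value at 24 h was thus far above the Vim-KO values too. For Cd36, B3galnt1 and Cd48, which level is nearer depends on the scale. The cause was not tested.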
